A study of Mus musculus with 4 samples.

Results

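Hypoxic macrophages are described here among live CD45+ cells of CT2a glioma, a mouse astrocytoma line that grows in the brain of C57Bl/6 mice. A barcode of the single-cell RNA sequencing data was counted as one when it met a fixed rule on raw UMIs, the tagged molecules that are counted once each. It had to hold at least 500 detected genes and under 10% mitochondrial UMIs. It also needed at least 30 UMIs of C1qa, C1qb and C1qc together, fewer than 2 UMIs of the microglia genes P2ry12, Tmem119, Crybb1 and Sall1, and none of Cd3e or Cd79a. Its last condition was at least 4 UMIs of Hilpda, Ndrg1 and Egln3 together. The rule was met by 157 of 13960 barcodes, 72 from WT and 85 from CaMKK2 KO mice. Hashtags assigned 141 of them to a single mouse, 62 WT and 79 CaMKK2 KO, and the other 16 carried hashtags of several mice and were left out. The comparison cells were the 1202 other C1q-gated macrophages, which met every condition but the last.

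The study compared the immune infiltrate of mice without CaMKK2, a calcium- and calmodulin-dependent kinase kinase, with that of WT mice, to ask what host CaMKK2 does in glioma. There were 4 WT and 4 CaMKK2 KO mice on a C57Bl/6 background, and both groups carried CT2a tumors implanted in the brain and had no further treatment. The knockout is germline, so that it is missing from every host cell and not only from macrophages, while the implanted tumor cells were the same in both groups. The labels give no age, the study's methods describe young adult mice, and tumor-bearing hemispheres were taken on day 14. The 4 mice of a genotype were hashtagged, pooled and run on 1 channel of the 10x platform, so genotype and channel cannot be told apart. The study's methods state that C57BL/6J mice were bought from the Jackson Laboratory, while an investigator at Duke University provided the CaMKK2 KO mice. The knockout line was derived from or backcrossed to C57BL/6, and the colony of origin may also differ between the genotypes. The 42 cell barcode sequences that occur in both libraries include 0 of the hypoxic macrophages.

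Cells answer low oxygen mainly through the hypoxia-inducible factors. When oxygen is plentiful, prolyl hydroxylases of the Egln family mark the HIF alpha subunits for destruction by the von Hippel-Lindau protein. When it is scarce, the subunits persist, pair with ARNT and bind a short DNA element near genes for glucose uptake, glycolysis, angiogenesis and autophagy of mitochondria. Macrophages are known to gather in poorly perfused areas of tumors, and the genes of the gate are established HIF targets. Hilpda encodes an inhibitor of lipolysis at lipid droplets, Ndrg1 a stress-induced cytoplasmic protein, and Egln3 one of the prolyl hydroxylases themselves. Oxygen was not measured here, so "hypoxic" names the rule and its genes.

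The core of the HIF binding element is ACGTG or GCGTG, which reads CACGT or CACGC on the other strand. It was searched on both strands in the 250 bases before each RefSeq transcription start (GRCm38.p6), with overlapping copies counted separately. The sequences shown are the 30 bases around the copy nearest to the start of 2 gate genes and of genes that the results below turn on, in the direction of the gene, with the core in capitals.
Hilpda, chr6:29272596-29272625, plus strand: cgagctcgtgcaggttcggtacGCGTGcgc
Egln3, chr12:54204086-54204115, minus strand: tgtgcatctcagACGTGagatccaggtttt
Ero1l, chr14:45318618-45318647, minus strand: cgcgcgccgctgCACGTccgcaggggaggc
Bnip3, chr7:138909524-138909553, minus strand: ggctccgccgccGCGTGcgtcccgccccgc
Slc2a1, chr4:119108697-119108726, plus strand: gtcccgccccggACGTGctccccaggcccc
Pgk1, chrX:106186957-106186986, plus strand: aaatggaagtagCACGTctcactagtctcg
Inhba, chr13:16011670-16011699, plus strand: cccagcaatgctCACGCatccgagttagca

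Hilpda had 3 copies before one of its annotated starts and 0 before the other. Bnip3 had 5 copies, Ero1l 3, Slc2a1 and Pgk1 2 each, and Egln3 and Inhba 1 each. The promoters of Mmp12, Il7r and Adam8, which are described below, held 0 copies. A copy is common, since 12679 of 32851 promoters in the table (38.6%) had at least 1, as did 41.5% of genes in any of their promoters. Among the genes of the lists used below, 18 of 21 HIF targets and 14 of 16 glycolysis genes with a promoter in the table had a copy. These matches describe the letters only and are not binding sites.

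The 3 gate genes were not equally shared among the members. Hilpda (chromosome 6, 29272488 to 29275446, plus strand) was seen in 122 of the 141 members (86.5%) and gave 52.6% of their hypoxia UMIs. Ndrg1 (chromosome 15, 66929318 to 66969640, minus strand) was seen in 103 members (73.0%), and Egln3 (chromosome 12, 54178981 to 54203860, minus strand) in 89 (63.1%). In the other macrophages the same shares were 15.1%, 15.5% and 7.99%. All 3 genes were seen together in 56 members, 2 of them in 61 and only 1 in 24. The members held 4 to 74 hypoxia UMIs with a median of 7, and 50 held 10 or more. Just inside the threshold lay 28 cells with 4 UMIs and 14 with 5, and just outside it 38 cells with 3 and 86 with 2, while 812 macrophages (60.5%) held 0. The threshold therefore cuts a continuous range of counts, and 42 of the 141 members lie within 2 UMIs of it.

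Members had a higher median depth than the other macrophages in 7 of 8 mice. The gap was widest in CaMKK2 KO mouse 3 (22907 against 14093 UMIs) and CaMKK2 KO mouse 1 (20523 against 15074 UMIs), while WT mouse 3 went the other way (13601 against 14157.5 UMIs). Pooled over mice, their median was 15039 UMIs in WT and 17656 in CaMKK2 KO mice, against 13720.5 and 14142.5 in the other macrophages. Mitochondrial UMIs had medians per mouse of 0.967% to 2.99% in members and 1.15% to 2.78% in the others. The members of a mouse summed to between 100840 UMIs (7 cells of CaMKK2 KO mouse 4) and 835317 UMIs (44 cells of CaMKK2 KO mouse 2).

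Other cells of the infiltrate passed the same count as well. At least 4 hypoxia UMIs were held by 253 of 2611 cells of the microglia gate (9.69%), 84 of 606 cells with 5 to 29 C1q UMIs (13.9%), and 341 of 2656 T and NK cells (at least 2 UMIs of Cd3e and Ncr1 and fewer than 5 of C1q; 12.8%, 95% exact binomial interval 11.6% to 14.2%). The share of C1q-gated macrophages was 141 of 1343, or 10.5% (8.91% to 12.3%), with a median of 14103 UMIs per cell. B cells (at least 5 UMIs of Cd79a and Cd79b) were the exception with 1 of 380 (0.263%, 0.00666% to 1.46%) at a median of 4280.5 UMIs, and when each cell was thinned to 5000 UMIs and asked for 2, they stood at 0.794% against 8.42% of macrophages and 11.9% of T and NK cells. The intervals cover counting error only. In T and NK cells Egln3 gave 1.91% of the hypoxia UMIs of the passing cells, against 13.1% in macrophages. The count is therefore met by several cell types and not by macrophages alone.

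Of the 3 given markers outside the gate, Ero1l and Mmp12 were higher in the hypoxic macrophages of all 8 mice, and Inhba in 5 of 8. Levels are CPM, the UMIs of a gene scaled to a fixed total over all UMIs of a class in a mouse, and ratios are taken within a mouse on the log2(CPM + 10) scale, which understates the change of low genes. Since the rule chose the cells by this contrast, the class differences are a description with no test. Ero1l (chromosome 14, 45283087 to 45318771, minus strand), the oxidase that renews disulfide bonds in the endoplasmic reticulum, stood at 398, 293, 388 and 270.3 CPM in the hypoxic macrophages of the 4 WT mice. In the CaMKK2 KO mice it stood at 258, 229.9, 238 and 149 CPM. In the other macrophages it lay between 28.6 and 68.3 CPM, so the classes did not overlap, and the median log2 ratio was 2.42 (1.17 to 3.40).

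Mmp12 (chromosome 9, 7344381 to 7369499, plus strand), the macrophage elastase, varied far more between mice. It reached 412, 115, 69.2 and 465 CPM in the WT and 98.3, 546, 89.1 and 9.92 CPM in the CaMKK2 KO mice, against 8.10 to 51.8 CPM in the other macrophages. CaMKK2 KO mouse 4, with 7 members, was barely apart (9.92 against 8.10 CPM). Inhba (chromosome 13, 16011851 to 16031621, plus strand), the subunit of activin A, was at 0 in WT mouse 4 and CaMKK2 KO mice 3 and 4, and at 91.8 to 229 CPM in WT mice 2 and 3 and CaMKK2 KO mouse 2. The label thus rests on the gate genes, Ero1l and, less evenly, Mmp12, and Inhba marked only some mice. Of 9 general macrophage markers none was at 0, and the integrin Itgam was higher in all 8 mice (518 ± 107 against 396 ± 68.0 CPM, mean ± SD, n = 8). Csf1r, the receptor for colony-stimulating factor 1 (487 ± 89.6 against 649 ± 39.7), the lysozyme gene Lyz2 and Aif1 were lower in all 8.

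Across all 7490 genes with at least 200 UMIs in the C1q-gated macrophages, the median log2 ratio was −0.11. Only 3 genes (0.0401%) were at least 2-fold higher in the hypoxic macrophages of every mouse, Ero1l and Il7r among them, and 0 were 2-fold lower in every mouse. Of the 3 genes, 1 met the rule with each cell thinned to 5000 UMIs, and 2 did with a gate of 6 UMIs or a gate on the rate of hypoxia UMIs. With a wider listing, chosen after the first was seen, that asked for the same direction in all 8 mice and a 2-fold median, 54 genes (0.721%) were higher and 20 (0.267%) lower. This split depended on the setting, since it was 37 to 64 with a gate of 6 UMIs, 63 to 66 with a pseudocount of 1 and 28 to 27 with each cell thinned to 5000 UMIs, of which 19 and 5 were shared with the 54 and the 20.

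Il7r (chromosome 15, 9505788 to 9530176, minus strand), the alpha chain of the interleukin-7 receptor and a gene best known in lymphocytes, stood at 146, 153, 133 and 37.7 CPM in the WT and 61.0, 217, 116 and 119 CPM in the CaMKK2 KO mice. In the other macrophages it lay between 10.9 and 77.6 CPM. Among T cell markers outside the gate, Cd3d averaged 4.79 ± 4.27 against 3.50 ± 0.997 CPM and Trac 4.22 ± 7.32 against 2.35 ± 1.06 CPM. The rule itself removed every cell with a Cd3e UMI. The 4 markers together were higher in 5 of 8 mice, and their part in the Il7r values was not tested.

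**Figure D1:**
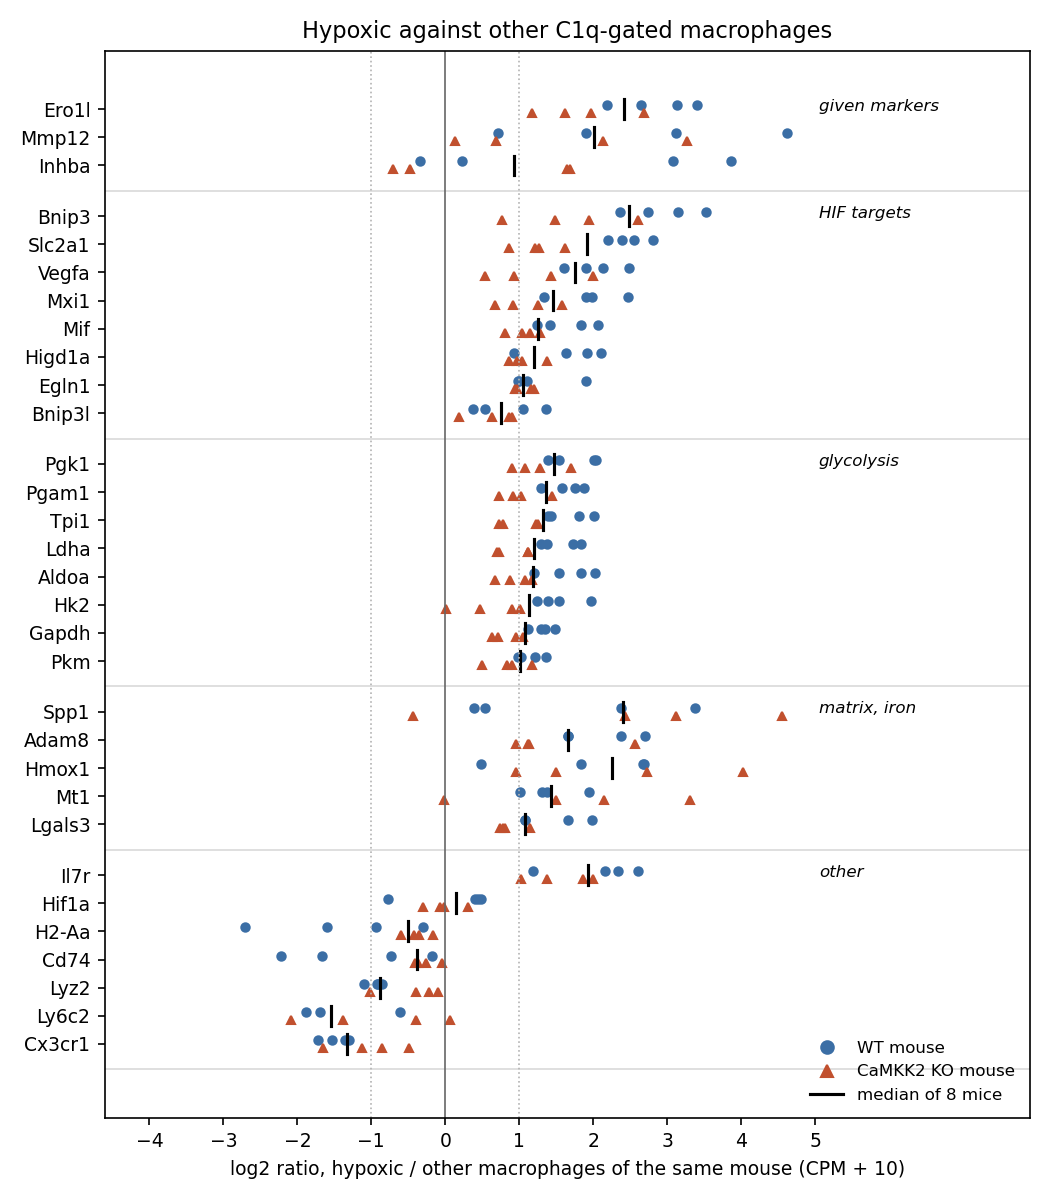
Log2 ratio of hypoxic over other C1q-gated macrophages (CPM + 10) for named genes, 1 point per mouse (circles WT, triangles CaMKK2 KO) with the median of the 8 mice as a bar and dotted lines at 2-fold. Ero1l and Il7r lie beyond 2-fold in all 8 mice, and Inhba and Spp1 spread across 0.

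Most HIF targets besides the gate genes were higher in the hypoxic macrophages. Of 18 measured members, 13 were higher in all 8 mice and 0 lower, against 2.31% higher and 5.26% lower of all 7490 genes, and their median log2 ratio was 1.22. The gate was built from genes of the same program, so nothing is read from this beyond the size of the values. Bnip3, which drives autophagy of mitochondria, averaged 353 ± 159 against 61.2 ± 27.8 CPM (median log2 ratio 2.49), and Vegfa, the main angiogenic factor, at 375 ± 95.8 against 119 ± 52.2 CPM (1.76). Slc2a1, which encodes the glucose transporter GLUT1, averaged 307 ± 63.8 against 80.8 ± 34.96 CPM (1.91), and Mxi1, a MYC antagonist that pairs with MAX, at 85.7 ± 51.9 against 20.1 ± 5.31 CPM (1.45). For these 4 genes every level in hypoxic macrophages was above every level in the others across the 8 mice, as for 0.587% of all 7490 genes. Mif, a cytokine with many pseudogene copies that make its counts uncertain, averaged 1807 ± 176 against 716 ± 176 CPM (1.26). Other members did not follow, since Kdm3a, a histone demethylase, had a median log2 ratio of 0.24 and Pfkfb4 of −0.39, and Car9, a carbonic anhydrase, was near 0 in both classes (1.43 ± 2.11 and 3.05 ± 2.88 CPM).

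The factors of the pathway themselves were not among the genes that stood apart. Hif1a, the oxygen-regulated subunit, averaged 207 ± 81.1 against 193 ± 80.2 CPM with a median log2 ratio of 0.15 and was higher in 4 of 8 mice, its partner Arnt at 29.5 ± 10.8 against 27.7 ± 6.92 CPM. Epas1, which encodes HIF2 alpha, had 0 UMIs in the members. Of the 4 pathway genes measured, 0 were higher and 0 lower in all 8 mice, near the 2.31% and 5.26% of all genes.

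Glycolysis genes were higher nearly as a block. All but 1 of its 16 genes were higher in the hypoxic macrophages of all 8 mice, the exception being the hexokinase Hk1, and the list's median log2 ratio was 1.15. The steps covered uptake and entry (Slc2a1, and Hk2 at 239 ± 71.8 against 106 ± 25.2 CPM) through the middle of the pathway (Pgk1 at 1129 ± 137 against 409 ± 137, Pgam1 at 1003 ± 208 against 394 ± 81.3, Tpi1 at 1409 ± 129 against 583 ± 213). Lactate production and export belonged to it, with Ldha at 1446 ± 249 against 609 ± 124 CPM and the lactate carrier Slc16a3 at 258 ± 48.0 against 96.1 ± 49.3 CPM. Summed over the list, glycolysis genes took 17329 ± 1291 CPM in hypoxic and 6295 ± 550.3 CPM in other macrophages of the WT mice, and 15448 ± 1196 and 8181 ± 1535 CPM in the CaMKK2 KO mice. Oxidative phosphorylation lay near the median of all genes. Of its 15 genes 0 were higher and 3 lower in all 8 mice, against 2.31% and 5.26% of all genes. The 3 lower genes were Ndufa4, Sdha and Sdhb, subunits of the respiratory chain. The list's median log2 ratio was −0.14, and Cox4i1 averaged 842 ± 153 against 837 ± 77.1 CPM. Cox4i2, the isoform of that subunit known for its response to low oxygen, was in the wider listing at 45.5 ± 37.4 against 6.05 ± 1.89 CPM.

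Single genes of the matrix, arginine and oxidative stress lists were also higher, with list medians of 0.95, 0.59 and 0.42. Spp1, the secreted phosphoprotein osteopontin, stood at 2153, 6829, 3075 and 1779 CPM in the WT and 7996, 680.0, 116 and 179 CPM in the CaMKK2 KO mice, and was higher than in the other macrophages of the same mouse in 7 of 8. In the matrix list the metalloproteinases Mmp12, Mmp13 and Adam8 were higher in all 8 mice, 3 of 11 measured against 2.31% of all genes. Adam8 averaged 289.8 ± 109 against 81.1 ± 42.1 CPM. Mmp14, a metalloproteinase of the cell membrane, was lower in all 8 (278.6 ± 81.9 against 372 ± 49.5 CPM). Hmox1, the heme oxygenase, averaged 584 ± 379.8 against 116 ± 58.0 CPM and was higher in 8 of 8 mice. The ferritin genes Fth1 and Ftl1 were higher in all 8 mice with median log2 ratios of 0.46 and 0.35, and the metallothioneins Mt1 and Mt2 in 7 of 8. In the arginine list, Nos2, the inducible nitric oxide synthase, was higher in 7 of 8 mice (86.6 ± 70.3 against 17.9 ± 23.7 CPM), Slc7a2, an arginine carrier, in all 8, and Acod1, which makes itaconate, in 3 of 8. Lgals3, the gene of galectin-3, averaged 3168 ± 944 against 1375 ± 210.4 CPM without overlap.

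Lipid droplet genes, which share their theme with the gate gene Hilpda, were less uniform than the HIF targets and glycolysis genes. Plin2, the coat protein of lipid droplets, averaged 513 ± 247 against 273 ± 52.2 CPM and was higher in 7 of 8 mice. Of 10 measured members 0 were higher in all 8, near the 2.31% of all genes that were, and the list's median log2 ratio was 0.12. The same held for the integrated stress and unfolded protein response (0 of 9, median 0.22) and inflammatory cytokines and chemokines (0 of 11, median 0.27). In the last list Ccl5 was lower in 7 of 8 mice and Cxcl2 higher in 6 of 8.

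Monocyte and antigen presentation genes lay on the lower side. Of 7 MHC class II genes, 5 were lower in all 8 mice (5.26% of all genes were), with a list median of −0.51. H2-Aa stood at 352, 3362, 2314 and 1509 CPM in the hypoxic macrophages of the WT mice, against 2352, 4140.0, 4421 and 4582 CPM in their other macrophages. In the CaMKK2 KO mice it stood at 7437, 9168, 8495 and 10294 CPM against 11257, 12238, 10874 and 11498 CPM. Monocyte markers had a median log2 ratio of −0.80, and Ccr2, the receptor that brings monocytes into tissue, was lower in 8 of 8 mice (229 ± 110 against 387 ± 114 CPM), as was Plac8. Cx3cr1, the fractalkine receptor, averaged 160.3 ± 52.3 against 404 ± 132 CPM and was lower in 8 of 8, like Tgfbr1 (94.2 ± 21.9 against 195 ± 38.2) and Axl, a receptor for dying cells (129 ± 52.2 against 272 ± 36.1). The interferon response list had a median of −0.52 with 1 of 13 genes lower in all 8 mice.

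Markers of other cell types were low in the members. Neutrophil markers summed to 33.5 ± 15.0 CPM in the members of WT and 77.6 ± 29.4 CPM in those of CaMKK2 KO mice, led by Csf3r, and were higher than in the other macrophages in 1 of 8 mice, with Retnlg at 0. Dendritic cell markers summed to 2.85 ± 3.32 and 40.8 ± 36 CPM, mostly Ccr7, with Cd209a at 0. They were higher than in the other macrophages in all 4 CaMKK2 KO mice (67.8 against 9.87, 9.58 against 7.68, 75.9 against 5.23 and 9.92 against 4.63 CPM) and lower in all 4 WT mice. These sums rest on very few UMIs, since the members held 100840 UMIs in all in CaMKK2 KO mouse 4 and 159067 in WT mouse 4. Neural and glial markers summed to 38.4 ± 18.3 and 22.8 ± 9.82 CPM, mostly Mbp, and were higher in 4 of 8 mice, with Olig1 at 0. Endothelial markers summed to 34.4 ± 20.1 and 64.5 ± 28.5 CPM and were mostly Pecam1, which macrophages also express, with Cldn5 at 0. The endothelial sum was higher in 6 of 8 mice and Pecam1 in all 8. Fibroblast markers summed to at most 1.15 ± 1.60 CPM, and the 4 red cell genes were at 0. NK cell markers summed to 18.5 ± 9.02 and 24.5 ± 11.1 CPM and were higher in 2 of 8 mice, and B cell markers outside the gate to 31.8 ± 20.0 and 52.3 ± 33.3 CPM and were higher in 1 of 8. Mast cell and basophil markers summed to at most 1.91 ± 3.83 CPM. The summed level of 7 microglia markers outside the gate was higher in 1 of 8 mice. Genes known to respond to tissue dissociation were higher as a sum in 3 of 8 mice, with Fos lower in all 8 mice, while the heat shock genes Hspa1a and Hspa1b, which share near-identical sequence, were higher in 7 of 8. The part of these markers in the class differences was not tested.

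Several levels followed the hypoxia count over its whole range and not only at the threshold. In macrophages with 0, 1, 2 to 3, 4 to 5 and 6 or more hypoxia UMIs (812, 266, 124, 42 and 99 cells), Bnip3 stood at 42.2, 74.7, 140.6, 205 and 418 CPM as means of 8 mice. Ero1l stood at 37.2, 61.2, 66.5, 92.5 and 359 CPM, so that most of its difference lay in the cells with 6 or more. Each mouse counts equally in these means, although 6 of the 7 members of CaMKK2 KO mouse 4 held only 4 or 5 UMIs. Cx3cr1 stood at 413, 402, 338, 179.8 and 148 CPM, while Hif1a went from 181 to 222, 203, 208 and 159 CPM with no order. Lyz2 was highest in the cells with 2 to 3 UMIs (8940 ± 2514 CPM) and lowest in those with 6 or more (4404 ± 2363 CPM). Median depth was lowest in the cells with 0 (13695.5 UMIs) and highest in those with 4 to 5 (17491 UMIs), and its part in these levels was not tested.

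**Figure D2:**
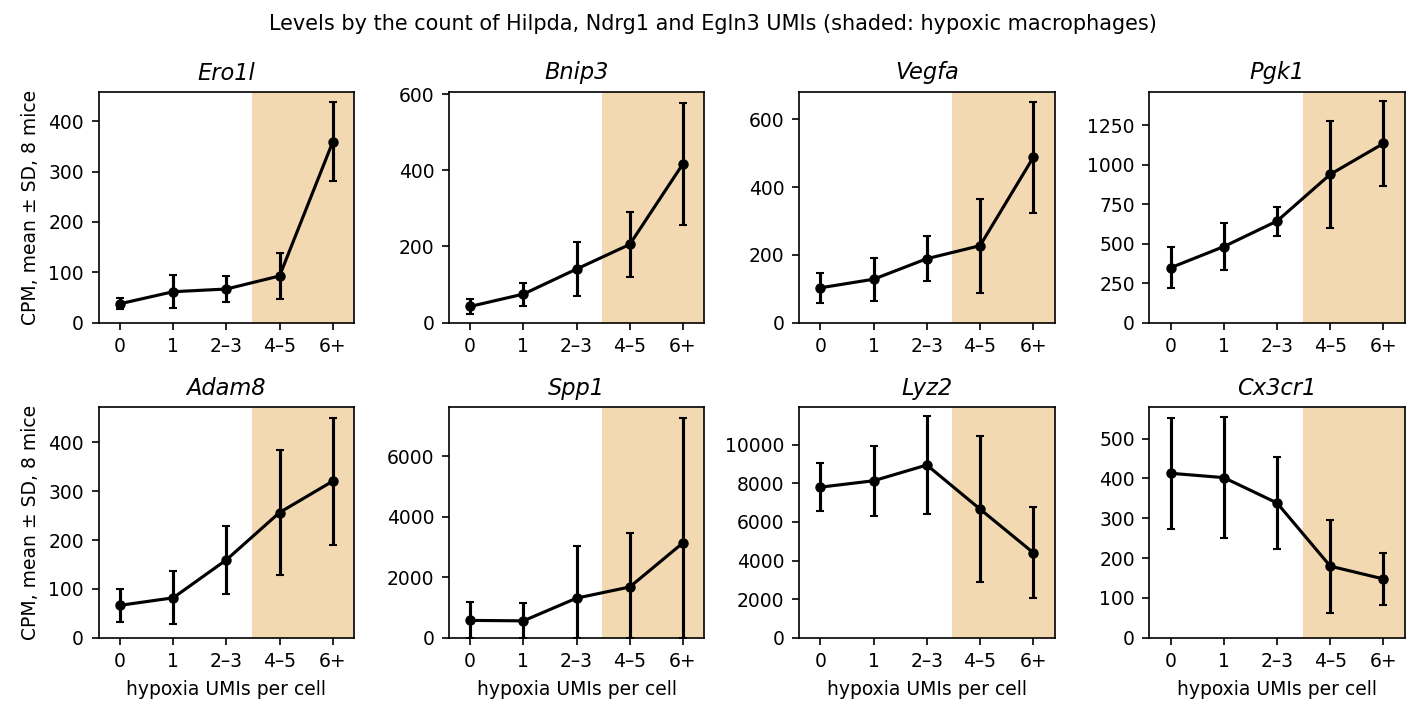
Mean CPM ± SD over 8 mice (y axis) of 8 genes in C1q-gated macrophages with 0, 1, 2 to 3, 4 to 5 and 6 or more UMIs of Hilpda, Ndrg1 and Egln3 (x axis), with the bins of the hypoxic macrophages shaded. Bnip3, Vegfa and Pgk1 are higher in each further bin, Ero1l is highest in the last (359 CPM), and Cx3cr1 is lowest there (148 CPM).

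Cells of the microglia gate that passed the same count (253 of 2611) had many of the same differences from the rest of their gate. Ero1l averaged 237 ± 63.6 against 41.8 ± 11.7 CPM and Bnip3 344 ± 109 against 51.5 ± 18.0 CPM, each higher in 8 of 8 mice, and Mmp12 was higher in 7 of 8. Cx3cr1 was lower in 8 of 8 mice there too (431 ± 119 against 978 ± 182 CPM). H2-Aa was higher in 3 of 8 mice with a median log2 ratio of −0.06, unlike the −0.51 of the macrophages, and this difference was not tested. These cells were chosen by the same genes, so these values are a description as well.

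The share of hypoxic macrophages among C1q-gated macrophages had the same mean in both genotypes and varied widely among mice. They were 14.4% (16 of 111), 14.9% (23 of 154), 8.22% (12 of 146) and 5.02% (11 of 219) in the WT mice. In the CaMKK2 KO mice they were 7.08% (15 of 212), 22.4% (44 of 196), 7.78% (13 of 167) and 5.07% (7 of 138). The groups overlapped, with means of 10.6% ± 4.83 (SD, n = 4) and 10.6% ± 7.99 (SD, n = 4), a difference of −0.0525 percentage points (two-sided exact permutation test, p = 1, the smallest possible being 0.0286). The rule counts raw UMIs, so the share was also taken after thinning each cell to 5000 UMIs with a gate of 2, which left out 30 WT and 19 CaMKK2 KO macrophages and gave 9.87% ± 5.12 and 7.49% ± 4.19 (exact permutation p = 0.486). CaMKK2 KO mouse 2 alone held 31.2% of all members. Without it the CaMKK2 KO mean was 6.64%, a difference of −4.004 percentage points (exact permutation p = 0.286). With 4 mice per genotype and this spread, a change of several percentage points could have been missed, and the smallest detectable change was not tested.

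**Figure D3:**
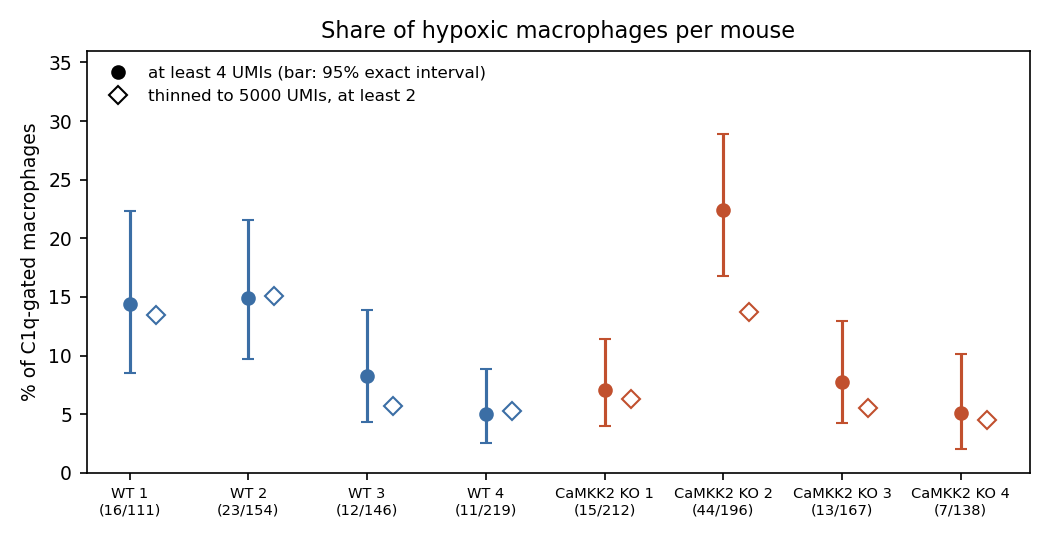
Percentage of C1q-gated macrophages that were hypoxic (y axis) in each of the 4 WT and 4 CaMKK2 KO mice, with 95% exact binomial intervals (filled) and after thinning to 5000 UMIs (open diamonds). CaMKK2 KO mouse 2 stands at 22.4%, above the other CaMKK2 KO mice at 5.07% to 7.78%, and the WT mice span 5.02% to 14.9%.

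The gate genes could be tested between genotypes only in all C1q-gated macrophages together, where the hypoxia count selects no cells. Hilpda stood at 137, 142, 40.0 and 22.7 CPM in the WT and 20.9, 86.2, 33.9 and 11.5 CPM in the CaMKK2 KO mice. The groups overlapped, and the log2 fold change was −1.10 ± 0.66 (SE; edgeR quasi-likelihood test with Benjamini-Hochberg adjustment, adjusted p = 0.421). Ndrg1 averaged 48.3 ± 32.7 against 40.4 ± 16.99 CPM (log2 fold change −0.18, adjusted p = 0.882) and Egln3 at 16.5 ± 9.27 against 17.5 ± 11.5 CPM (0.19, adjusted p = 0.875). In that fit 149 of 7497 genes (1.99%) passed an adjusted p of 0.05. Camkk2 (chromosome 5, 122731170 to 122779409, minus strand) was one of them, with 29.9, 26.7, 32.8 and 28.3 CPM in the WT and 12.7, 11.95, 10.8 and 16.95 CPM in the CaMKK2 KO mice (log2 fold change −1.18 ± 0.16, adjusted p = 0.00393). Its transcript was therefore lower but present in the libraries labelled CaMKK2 KO, where the 3′ tags need not lie in the deleted part. In the hypoxic macrophages it had 17 UMIs in each genotype, too few to test, with 24.9, 12.8, 21.3 and 6.29 CPM in the WT and 10.2, 13.2, 3.30 and 19.8 CPM in the CaMKK2 KO mice.

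In hypoxic macrophages 11 genes differed between genotypes, among them H2-DMb1, H2-DMa, Ifi202b and Ifi44, which were higher in CaMKK2 KO mice, and Thbs1 and Ccl4, which were lower. The fit covered 1770 genes that reached 200 UMIs over the members, of which 6 were higher (0.339%) and 5 lower (0.282%) at an adjusted p of 0.05 (edgeR quasi-likelihood test on UMIs summed per mouse), and 229 had an unadjusted p under 0.05. None of the 11 overlapped between genotypes, and 8.14% of all genes tested did not. H2-DMb1 (chromosome 17, 34153072 to 34160230, plus strand), a chain of the chaperone that loads peptides on MHC class II, stood at 81.7, 265, 170.2 and 132 CPM in the WT and 966, 793, 723 and 843 CPM in the CaMKK2 KO mice. Every CaMKK2 KO mouse was at least 2-fold above every WT mouse, and the log2 fold change was 2.34 ± 0.33 (SE, adjusted p = 0.0164). H2-DMa, the other chain, rose from 320.1 ± 101 to 876 ± 116 CPM (1.44 ± 0.25, adjusted p = 0.0373).

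Ifi202b (chromosome 1, 173962568 to 173982744, minus strand), of the interferon-inducible Ifi200 family, had 0 UMIs in the hypoxic macrophages of all 4 WT mice and 213, 257, 129 and 367 CPM in the CaMKK2 KO mice. Over the class these were 0 and 354 UMIs, at least 78.5-fold higher against a floor of 3 UMIs over the WT group (adjusted p = 0.00718). Ifi44 (chromosome 3, 151730922 to 151749960, minus strand), an interferon-induced cytoplasmic gene, rose from 28.4, 10.2, 5.32 and 6.29 CPM to 305, 360.3, 92.4 and 605 CPM (log2 fold change 4.56 ± 0.65, adjusted p = 0.0164). Without WT mouse 1 its log2 fold change was 5.31, and with a gate of 6 UMIs it was 3.88 (edgeR, adjusted p = 0.0681). Ifi44 also lost its call without WT mouse 3 or WT mouse 4. Gm8797, a predicted gene on chromosome 3, rose from 6.35 ± 8.42 to 163 ± 38.8 CPM. It shares near-identical sequence with other genes, so its counts are uncertain, as are those of the Ifi200 family. Plaat3, which encodes a phospholipase, rose from 39.2 ± 4.72 to 119 ± 32.7 CPM (1.63 ± 0.27, adjusted p = 0.0306). Of 12 genes measured from the general interferon response list 0 passed, with a median log2 fold change of 0.31. That median was 0.10 with the gate on the rate, −0.21 with a gate of 6 UMIs and 0.45 without CaMKK2 KO mouse 2, so its direction depended on the gate.

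Thbs1 (chromosome 2, 118111876 to 118127133, plus strand), which encodes the matrix glycoprotein thrombospondin-1, was at 444, 2181, 1032 and 226 CPM in the hypoxic macrophages of the WT and at 71.2, 59.9, 52.8 and 49.6 CPM in those of the CaMKK2 KO mice. It fell by 4.03 ± 0.65 on the log2 scale (adjusted p = 0.0306), and the WT mice differed among themselves more than the CaMKK2 KO mice. The log2 fold change of Thbs1 was −3.25 without WT mouse 2 and −3.06 with the gate on the rate (edgeR, adjusted p = 0.0736). Thbs1 lost its call in 8 of 17 alternatives. Ccl4 (chromosome 11, 83662584 to 83664683, plus strand), a chemokine that draws in leukocytes, stood at 3006, 1276, 1378 and 1106 CPM in the WT and 193, 346, 541 and 179 CPM in the CaMKK2 KO mice (log2 fold change −2.40 ± 0.44, adjusted p = 0.0444). Hsph1, a heat shock protein that works with HSP70, fell from 148 ± 61.8 to 26.9 ± 9.98 CPM (adjusted p = 0.0306). Got1, the cytosolic aspartate aminotransferase, fell from 233 ± 75.5 to 60.7 ± 25.9 CPM (adjusted p = 0.0444).

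**Figure D4:**
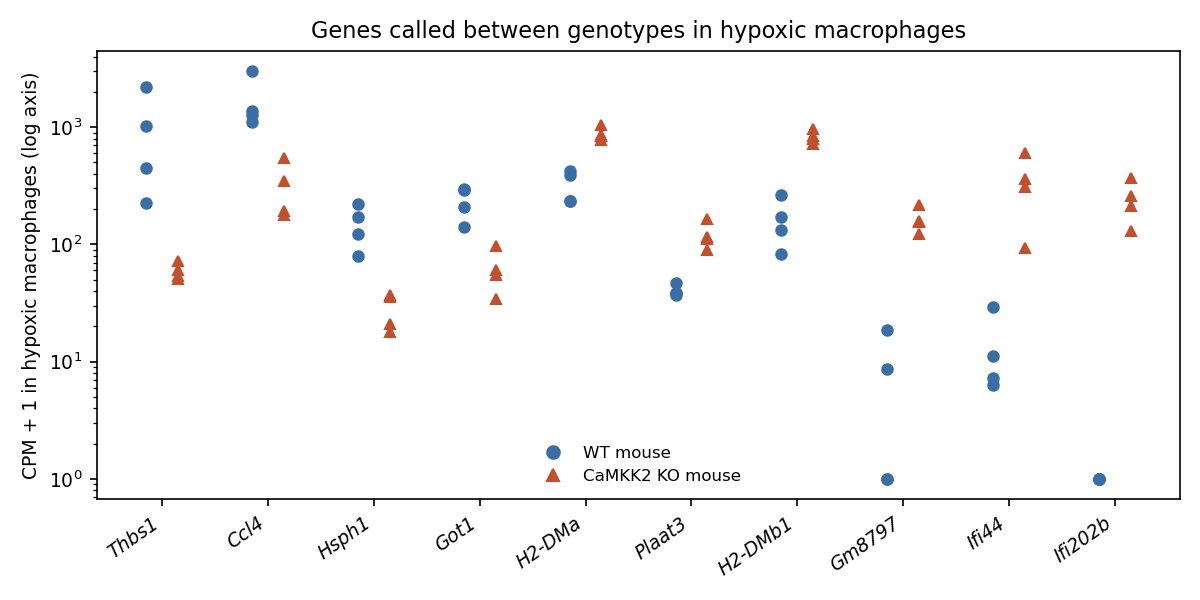
CPM + 1 (log axis) in the hypoxic macrophages of each of the 4 WT (circles) and 4 CaMKK2 KO mice (triangles) for 10 of the 11 genes that passed an adjusted p of 0.05. None of the 10 overlaps between genotypes, and Ifi202b lies at 0 CPM in the 4 WT mice.

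These calls are not shown to be particular to hypoxic macrophages. In the other macrophages 169 of 7163 genes (2.36%) passed the same test, and 8 of the 11 genes passed there in the same direction. The other 3 were Ccl4, Hsph1 and Plaat3, with log2 fold changes there of −0.95, −0.87 and 0.95. The test of the difference between the classes, an interaction with the mouse as a block, called 0 of 1770 genes (0.00%, edgeR) with 160 at an unadjusted p under 0.05. In lymphocytes (the T, NK and B cells above) 5 of the 11 genes did not overlap between genotypes either, Gm8797, Ifi44, Ifi202b and Thbs1 among them, against 20.3% of the same 1770 genes. The WT and CaMKK2 KO means were 6.89 and 176 CPM for Gm8797 there. The part of the channel or of the colony of origin in these values was not tested. CaMKK2 KO mouse 2 supplied 44 of the 79 CaMKK2 KO cells, and without it 0 of 1164 genes passed (120 at an unadjusted p under 0.05), while the 6 called genes still measured kept their direction at adjusted p between 0.146 and 0.204. Leaving out WT mouse 3, WT mouse 4, CaMKK2 KO mouse 1 or CaMKK2 KO mouse 4 gave 2, 4, 5 and 5 calls, of which 2, 3, 5 and 4 were among the 11. A gate of 6 UMIs gave 1 call, Ifi202b, and removed 6 of the 7 members of CaMKK2 KO mouse 4.

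MHC class II genes were all on the higher side in the CaMKK2 KO hypoxic macrophages, with 7 of 7 positive log2 fold changes (869 of all 1770 genes), 2 called (0.339% of all genes were called higher) and a list median of 2.34 (all genes −0.01). In the other macrophages the 7 genes were all called, with a median of 1.58. The dendritic cell markers above moved the same way, though on very few UMIs. They summed to 2.85 ± 3.32 CPM over the WT members and 40.8 ± 36 CPM over those of the CaMKK2 KO mice. So did the monocyte markers, with overlapping sums of 908 ± 507 and 3026 ± 2142 CPM, a median log2 fold change of 1.62 and 0 of 4 called. The part of both in the values of the MHC class II and H2-DM genes was not tested. H2-Aa had log2 fold changes of 2.23 ± 0.53 in hypoxic (adjusted p = 0.109) and 1.57 ± 0.19 in other macrophages (adjusted p = 0.00146). The interaction gave H2-Aa a difference of 0.96 (adjusted p = 0.503). Apoe, an apolipoprotein of lipid transport that fell by 4.004 on the log2 scale in the other macrophages (adjusted p = 0.00059), was at 28237, 14057, 18945 and 24210 CPM in the WT and 2863, 289, 4782 and 29.8 CPM in the CaMKK2 KO hypoxic macrophages. Its groups did not overlap, but the CaMKK2 KO mice spread so widely that the log2 fold change of −3.42 ± 1.05 did not pass (adjusted p = 0.218). Among the given markers, the log2 fold change of Ero1l was −0.60 ± 0.22 (adjusted p = 0.307), and Mmp12 and Inhba had −0.35 and −0.43 (adjusted p = 0.898 and 0.911).

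Hypoxia genes did not pass the genotype test in hypoxic macrophages, where 0.339% of all genes were called higher and 0.282% lower. Short lists with 0 calls, like those here, are near that share. Of 13 HIF targets measured 0 were called and 0 were positive, with a median log2 fold change of −0.46. Of 15 glycolysis genes 0 were called and 4 were positive, with a median of −0.19. The other macrophages leaned the opposite way, with medians of 0.24 and 0.53 and only Slc2a1 called (0.99 ± 0.19, adjusted p = 0.0269). The interaction was negative for 12 of 13 HIF targets (median −0.64) and 15 of 15 glycolysis genes (median −0.61), against 842 of 1770 genes and a median of 0.01 over all genes, but no single gene passed. Slc2a1 came nearest (−1.34 ± 0.22, adjusted p = 0.0567), with Hspa5, a chaperone of the endoplasmic reticulum (−1.10 ± 0.18, adjusted p = 0.0567).

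The hypoxia counts that chose the members are given per mouse as a description, with no test. The median member held 8.003, 6.62, 6.86 and 6.14 hypoxia UMIs per 10000 UMIs in the WT and 4.59, 3.91, 3.20 and 2.61 in the CaMKK2 KO mice. Members with only 4 or 5 such UMIs were 3 of 16, 3 of 23, 3 of 12 and 4 of 11 in the WT and 4 of 15, 14 of 44, 5 of 13 and 6 of 7 in the CaMKK2 KO mice. Within the members Hilpda stood at 643, 763, 388 and 251 CPM in the WT and 136, 289, 191 and 109 CPM in the CaMKK2 KO mice. With the gate set on the rate, at least 2 hypoxia UMIs per 10000, the HIF target median was −0.31 with 10 of 13 negative, against 13 of 13 before, and the glycolysis median was 0.04 with 6 of 15 negative, against 11 of 15. With a gate of 6 UMIs the medians were −0.33 and −0.10, and without CaMKK2 KO mouse 2 they were −0.58 and −0.19. The interaction medians were −0.43 and −0.51 with the gate on the rate and −0.54 and −0.45 with the gate of 6 UMIs. They were −0.62 and −0.54 without that mouse. Each of these alternatives chose the members by the same gate genes, so none is free of the selection. The lists are also not separate, since Slc2a1 is in both. The part of the hypoxia counts in these values was not tested.

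**Figure D5:**
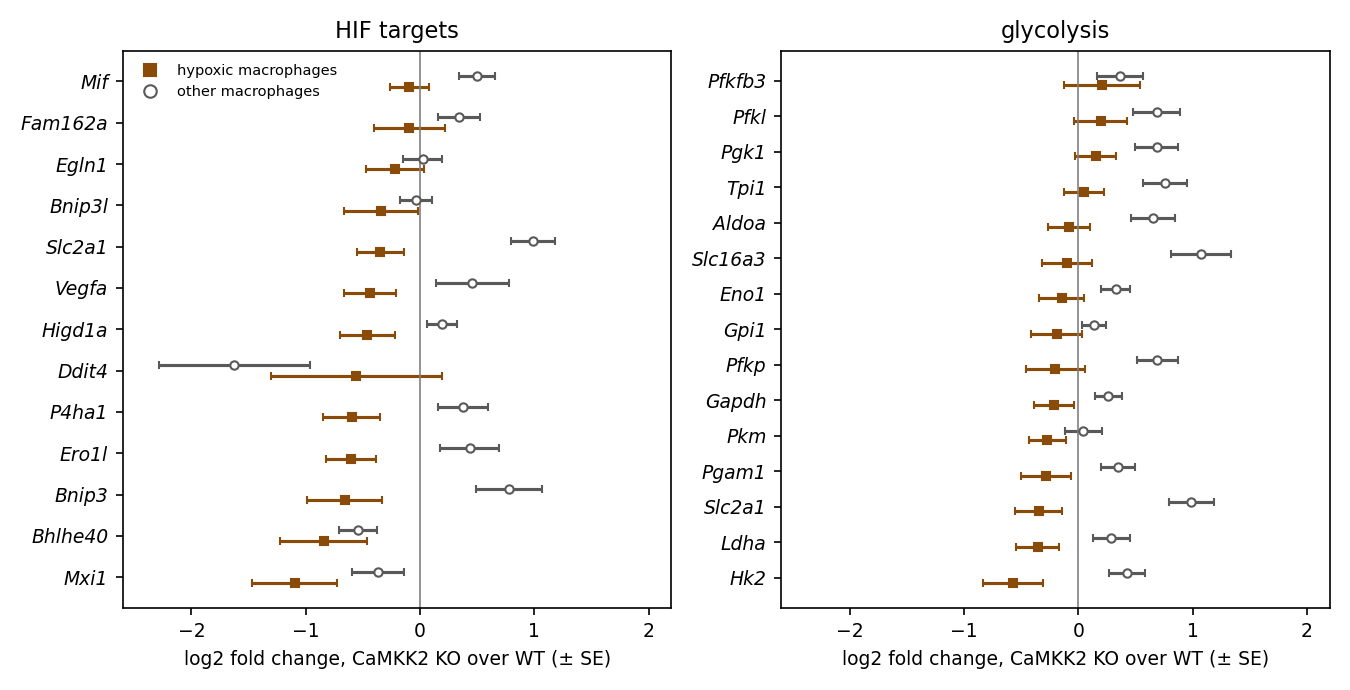
Log2 fold change of CaMKK2 KO over WT ± SE (x axis) for HIF targets (left) and glycolysis genes (right) in hypoxic (squares) and other (circles) macrophages. The squares lie to the left of the circles for all 15 glycolysis genes and for 12 of 13 HIF targets, and Slc2a1 in the other macrophages (0.99) is the single called value.

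The other lists had few or no calls between genotypes. Matrix remodelling had 1 of 8 genes called (Thbs1) and cytokines and chemokines 1 of 10 (Ccl4), both lower, where 0.282% of all genes were called lower. Ccl3, which lies beside Ccl4, had −1.998 on the log2 scale (adjusted p = 0.129). The arginine list had 0 of 5 called, and short lists with 0 calls are near the share of all genes called (0.339% higher and 0.282% lower). Lipid droplet genes (0 of 3), the unfolded protein response (0 of 6), oxidative phosphorylation (0 of 13), general macrophage markers (0 of 8) and monocyte markers (0 of 4) had no calls, with Plin2 at −1.08 (adjusted p = 0.117). A p that misses the threshold with 7 to 44 cells per mouse does not show that these levels were alike.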

How the data were processed

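Live CD45+ cells of tumor-bearing hemispheres were profiled with the 10x 3′ kit, 1 library per genotype with 4 hashtagged mice in each. Raw UMI counts were deposited for every gene in each barcode, and the authors had made them with bcl2fastq 2.20, Cell Ranger 4.0.0 and STAR 2.7.5c on mm10, per the submitters' notes, with all called barcodes kept and without normalization or doublet removal. Hashtag libraries were read as 4 further features of the same files.

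Mice were assigned with HTODemux (Seurat 5.3.0, quantile 0.99), which left out 667 WT and 508 CaMKK2 KO barcodes with several hashtags and 48 and 67 without a call. Doublets within a mouse were addressed only in an alternative (Scrublet, scanpy 1.11.5). UMIs of each class were summed per mouse and tested with edgeR 4.0.16 (glmQLFit and glmQLFTest, total UMIs as library size, at least 200 UMIs per gene, Benjamini-Hochberg 0.05) in place of the study's test on cells, since cells are not replicates. Gate genes were left out of the class and interaction fits. Shares were compared with a two-sided exact permutation test. A pseudocount of 10 CPM was used for ratios, and the code was tested on simulated data, in which the calls in hypoxic macrophages held more false genes than the nominal share and many 2-fold changes were missed. Gene positions are those of GENCODE M21 (GRCm38). The members, lists and tests were chosen with earlier results of these data known. Named genes were the given markers, Camkk2, Apoe, genes at least 2-fold apart in all 8 mice, genes past a threshold, and up to 4 members of each list by level and those past a threshold. Genes named beyond that rule, with the wider listing of class differences and the list medians under other gates, were chosen after values were seen. A few genes that the rule names are not reported here. The hashtags do not pair mice across genotypes.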

Additional observations from a re-analysis of the deposited data

Results flagged for a closer look

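In 44 groups of 4 mice (the share and the levels of 21 genes in hypoxic macrophages), 4 had one mouse far from the other 3, where chance gives about 1 in 20. The share of hypoxic macrophages was 22.4% in CaMKK2 KO mouse 2, with the next CaMKK2 KO mouse at 7.78%. In the same mouse Egln3 was at 98.2 CPM (next 62.7 CPM) and Mmp12 at 546 CPM (next 98.3 CPM). The 21 genes include the gate genes Hilpda, Ndrg1 and Egln3, so the share and Egln3 draw on the same counts. Those flags are not separate and are a description only. Ccl4 was at 3006 CPM in WT mouse 1, with the next WT mouse at 1378 CPM. The cause was not tested.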

How the results depend on the processing

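The share difference of −0.0525 percentage points turned positive with a gate of 3 UMIs (2.38), a C1q gate of 10 UMIs (0.281) and as a share of all cells of the mouse (0.0734), and lay between −4.004 and 1.79 with 1 mouse left out. Each of these had an exact permutation p of at least 0.286. The 11 genes called in hypoxic macrophages became 47 with DESeq2, 29 with genes of at least 50 UMIs, 221 with no filter, 6 with limma on mean CPM of cells, 22 with the gate on the rate and 1 with a gate of 6 UMIs, and 0 to 9 with 1 mouse left out. All 11 were among the 47, the 29 and the 221. Ifi202b passed in 16 of 16 alternatives that measured it, while Ccl4 and Got1 lost their call in 10 of 17. Ifi202b was not measured without CaMKK2 KO mouse 2, the alternative in which 0 of 1164 genes passed. That mouse held 60.7% of the Ifi202b UMIs, and the remainder fell short of the minimum UMIs per gene. None of the 11 genes turned its direction. The 169 genes of the other macrophages became 311 with DESeq2, 474 with no filter, and 69 to 190 with 1 mouse left out. The interaction called 57 genes with no filter, 1 with a gate of 6 UMIs (Rsad2, −3.04) and 0 with any mouse left out. In all C1q-gated macrophages the log2 fold change of Hilpda lay between −1.89 and −0.71, that of Ndrg1 between −0.51 and 0.27 and that of Egln3 between −0.39 and 0.56 with 1 mouse left out, none past the test. The 3 genes 2-fold apart in every mouse became 8 with a gate of 6 UMIs, 9 with a pseudocount of 1, and 3 to 10 with 1 mouse left out, and the wider listing of 54 higher and 20 lower had 45 to 63 higher and 20 to 31 lower with 1 mouse left out. The cause of these changes was not tested, apart from the number of genes tested, which the filters set. The hypoxic class rests on few cells, with 7 in CaMKK2 KO mouse 4, and on few UMIs, so that 1770 genes could be tested there against 7163 in the other macrophages. Mice could not be paired across genotypes, because the labels give them no shared numbers and the hashtags only name a mouse within its genotype.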
